A study of Mus musculus with 32 samples.

Results

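The expression of 9 genes of the extracellular proteolysis system was followed in 3 sorted populations of mouse islets, the β cells, the endothelial cells (ECs) and the macrophages (MΦs): the tissue inhibitors of metalloproteinases *Timp1*, *Timp2* and *Timp3*, the plasminogen system genes *Plat*, *Plau*, *Plaur* and *Serpine2*, and the thrombospondins *Thbs1* and *Thbs2*. They were chosen by name, for the proteins they encode, with earlier results of these data known. They are 9 of the 22850 genes in the deposited table. All 9 were found in it by symbol.

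Matrix metalloproteinases cut the proteins that surround cells, and TIMPs bind and block them. Plasminogen activators, tPA from *Plat* and uPA from *Plau*, turn plasminogen into plasmin, which dissolves fibrin and activates metalloproteinases. The uPA receptor from *Plaur* holds uPA at the cell surface, and protease nexin-1, the serpin from *Serpine2*, inhibits thrombin and both activators. Thrombospondins are secreted matrix proteins known for restraining the growth of capillaries, thrombospondin-1 also activates latent TGF-β, and TIMP3, which stays bound to the matrix, blocks VEGF-A from binding VEGFR2. Growing and regressing vessels are therefore a setting in which these genes are often measured.

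The cells came from βVEGF-A; MIP-GFP mice (MIP-GFP; RIP-rtTA; TetO-VEGF-A), bred from lines on a C57BL/6 background and 8 to 16 weeks old when the experiments began. In these mice the rat insulin promoter drives the doxycycline (Dox)-dependent activator in β cells, Dox in the drinking water at 5 mg/ml turns on human VEGF-A there, and the mouse insulin promoter drives GFP. All groups carried every transgene, the untreated (No Dox) mice included, so no group without the transgenes was compared. The 32 samples were 4 No Dox, 5 1wk Dox and 3 1wk WD samples of β cells, 4, 1 and 5 of ECs, and 4, 2 and 4 of MΦs, where 1wk Dox is 1 week of Dox and 1wk WD is 1 week after Dox withdrawal. The sort took GFP+ CD31- CD11b- events for β cells, CD31+ events for ECs and CD11b+ events for MΦs, from islets pooled over several mice, so that differences between single mice were averaged. The human transgene is not a row of this table of mouse genes, so its induction was not checked here. Replicates are samples that the labels list separately, and nothing in the labels says which mice each one pooled.

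On mouse build mm9, *Timp1* lies at chrX:20447292-20451861 on the plus strand, *Timp2* at chr11:118162383-118217054 on the minus strand and *Timp3* at chr10:85763117-85812251 on the plus strand. *Plat* lies at chr8:23868216-23893319, *Plau* at chr14:21655884-21662610 and *Plaur* at chr7:25247519-25260892, all on the plus strand, and *Serpine2* at chr1:79790772-79855271 on the minus strand. *Thbs1* lies at chr2:117937612-117952869 on the plus strand and *Thbs2* at chr17:14802507-14831269 on the minus strand. All 9 are annotated as protein-coding, with the same coordinates in GENCODE M1.

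The sequences around the start sites of *Timp2*, *Timp3* and *Plaur* are shown because these 3 genes had adjusted p-values under 0.05 in ECs after withdrawal. They are RefSeq sequences of build GRCm38.p6, each covering 250 bases before to 50 bases after the start of the gene, 5′ to 3′ along the gene's strand. Their positions are chr11:118355362-118355661 (minus strand) for *Timp2*, chr10:86300162-86300461 (plus strand) for *Timp3* and chr7:24462233-24462532 (plus strand) for *Plaur*. Capitals mark matches, on either strand, to the GC box letters GGGCGG, the AP-1 letters TGANTCA, the TATA box letters TATAAA or the purine box letters GAGGAA, and overlapping matches run together.
Timp2: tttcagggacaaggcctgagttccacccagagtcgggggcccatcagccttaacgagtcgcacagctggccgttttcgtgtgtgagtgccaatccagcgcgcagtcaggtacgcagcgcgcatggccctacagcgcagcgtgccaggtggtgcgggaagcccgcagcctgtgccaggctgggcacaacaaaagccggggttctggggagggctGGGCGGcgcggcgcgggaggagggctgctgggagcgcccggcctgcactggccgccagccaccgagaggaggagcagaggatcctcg
Timp3: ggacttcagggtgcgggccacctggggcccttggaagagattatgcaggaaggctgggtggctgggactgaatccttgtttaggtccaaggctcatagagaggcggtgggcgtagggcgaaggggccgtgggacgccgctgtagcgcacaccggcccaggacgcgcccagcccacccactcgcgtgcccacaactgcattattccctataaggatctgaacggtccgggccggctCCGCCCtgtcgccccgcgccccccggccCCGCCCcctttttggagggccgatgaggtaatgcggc
Plaur: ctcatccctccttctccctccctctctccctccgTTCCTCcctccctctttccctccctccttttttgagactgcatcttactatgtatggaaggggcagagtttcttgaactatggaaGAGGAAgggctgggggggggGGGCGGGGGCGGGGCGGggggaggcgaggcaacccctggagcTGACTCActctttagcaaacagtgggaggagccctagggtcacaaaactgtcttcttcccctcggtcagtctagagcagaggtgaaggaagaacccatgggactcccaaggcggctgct
*Timp2* held 1 GC box match and *Timp3* held 2, and neither held any of the other letters. *Plaur* held 3 GC box matches, 1 AP-1 match and 2 purine box matches. Of 32817 promoters of this length in the table, 35.6% held the GC box letters, 7.81% the AP-1 letters, 28.3% the purine box letters and 13.6% the TATA box letters. The table held 6 of the 9 genes, and entries for *Plat*, *Plau* and *Thbs1* were not found in it. A match is a run of letters and says nothing of binding.

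Each value below is a score, the authors' normalized expression value rounded to a whole number with 1 as the lowest. The sum over all genes ran from 23465985 to 53441769 per sample, and scores hold no read counts, so the depth behind a low score is unknown. The sorted cells carried the markers of their labels: the summed score of 8 EC markers was 334479 to 511038 in ECs and at most 45357 elsewhere, and that of 8 MΦ markers was 253765 to 433518 in MΦs and at most 7515 elsewhere. The β cell samples were less even. The summed score of 10 pericyte and stromal markers was 1031 and 1125 in No Dox β cell replicates 1 and 2, 153817 and 540417 in replicates 3 and 4, 107869 to 505631 in the 1wk Dox samples, and 369149, 335307 and 25966 after withdrawal. In No Dox ECs the same sum was 5637 to 12607, in the 1wk Dox EC sample 14469 and in the 1wk WD ECs 16858 to 70818, and in MΦs it was 2963 to 11462. Acinar markers reached their highest sums in No Dox samples in each cell type, and No Dox MΦ replicate 2 stood apart with a summed acinar score of 9911750, against 19228 to 1674642 in the other 3 of its group.

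**Figure D1:**
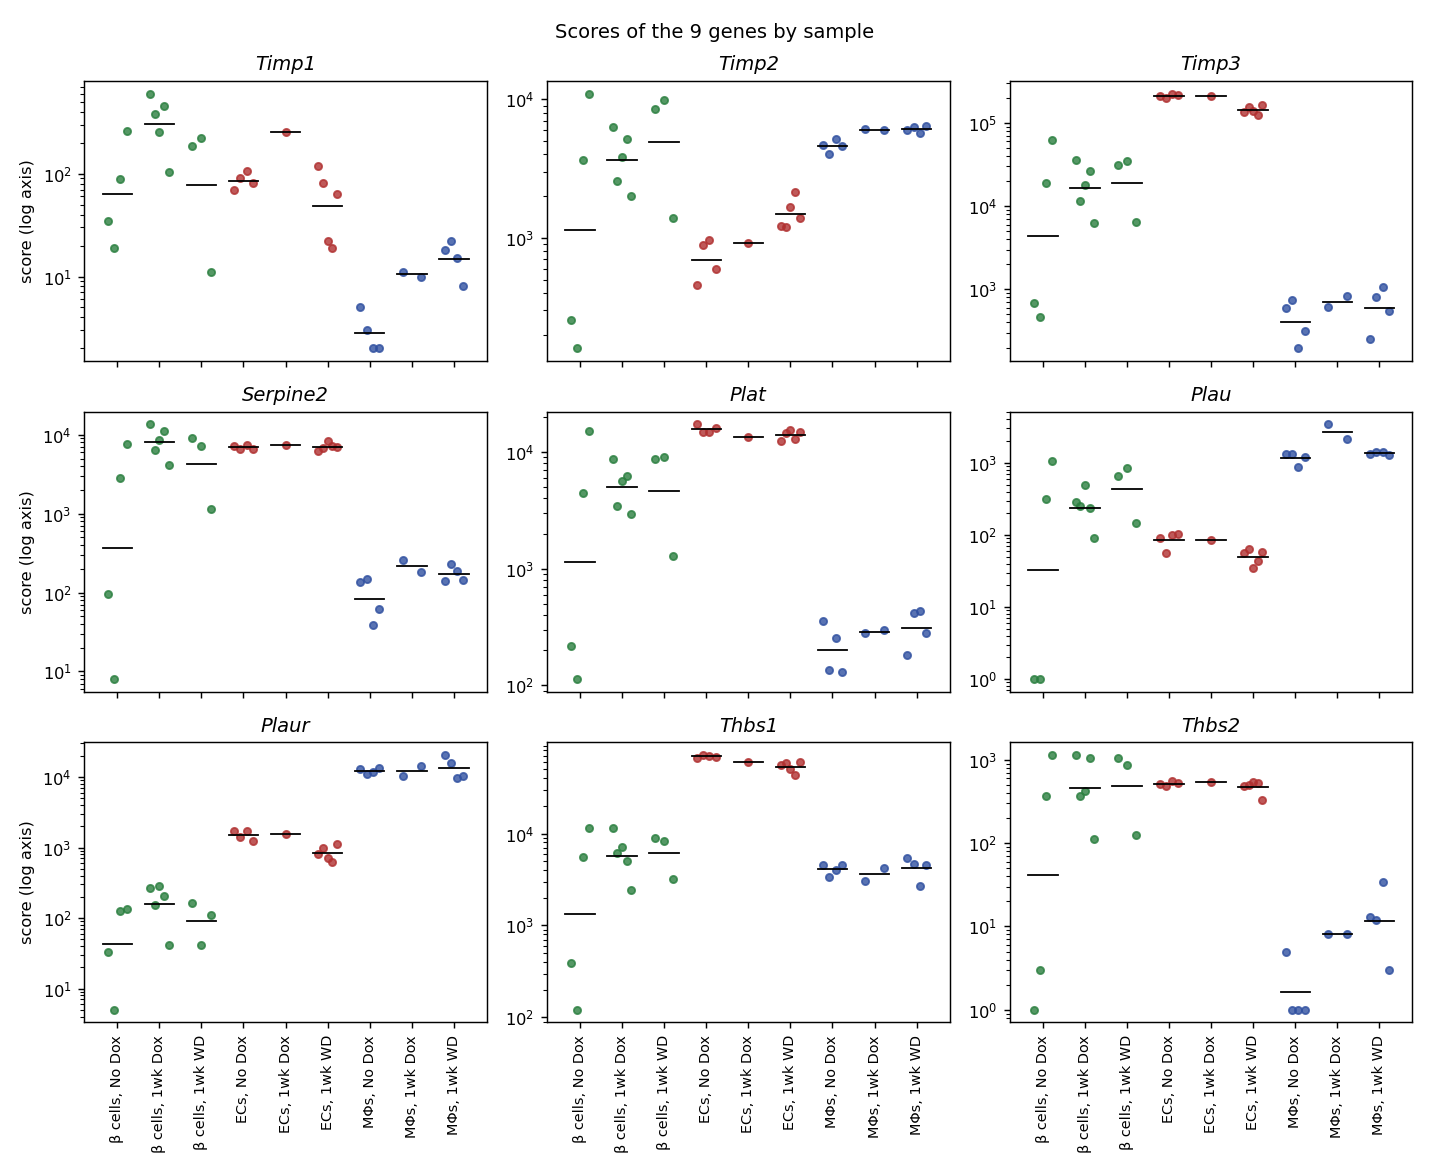
Score of each gene (log axis) in each of the 32 samples, by cell type and time; points are samples and black lines are group means on the log2(score + 1) scale. *Timp3* and *Thbs1* are highest in ECs, *Plaur* and *Plau* in MΦs, and the No Dox β cell samples separate into a low pair and a high pair for most genes.

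Among the TIMPs, each had its own distribution over the cell types. *Timp3* was an EC transcript: its scores were 124361 to 223364 in the 10 EC samples, 466 to 62132 in the 12 β cell samples and 195 to 1075 in the 10 MΦ samples, and the ECs overlapped neither of the others. *Timp2* was higher in MΦs, at 4059 to 6402, than in ECs, at 455 to 2158, while β cell samples ran from 159 to 10974, below and above both. *Timp1* was low throughout, at 11 to 598 in β cells, 19 to 255 in ECs and 2 to 22 in MΦs. In bulk samples such as these, a change in how many cells of a type were sorted and a change in RNA per cell cannot be told apart.

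The plasminogen system genes also separated by cell type. *Plat* scored 12343 to 17233 in ECs, 113 to 15048 in β cells and 131 to 432 in MΦs, and *Serpine2* scored 6267 to 8433, 8 to 13534 and 39 to 255. The activator *Plau* and its receptor *Plaur* had the opposite order between ECs and MΦs. *Plau* scored 880 to 3408 in MΦs, 35 to 104 in ECs and 1 to 1073 in β cells, and *Plaur* scored 9652 to 20454 in MΦs, 614 to 1739 in ECs and 5 to 281 in β cells, with no overlap between any cell types for *Plaur*. The tPA gene and the serpin that inhibits it were thus measured mainly in ECs and in those β cell samples with stromal markers, and the uPA gene and its receptor mainly in MΦs.

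*Thbs1* was far higher in ECs, at 43584 to 71287, than in MΦs, at 2658 to 5446, or β cells, at 121 to 11420. *Thbs2* scored 329 to 552 in ECs, 1 to 1137 in β cells and 1 to 34 in MΦs, and was at the lowest score, 1, in 3 of the 4 No Dox MΦ samples. Levels of different genes can be set side by side only per length. Per kilobase of exon, the mean score in No Dox ECs was 26100 ± 1430 for *Timp3*, 11400 ± 332 for *Thbs1*, 6210 ± 465 for *Plat*, 1830 ± 114 for *Serpine2* and 1090 ± 171 for *Plaur* (SD, n = 4). *Timp2* was at 186 ± 61.9 on that scale, *Timp1* at 97.4 ± 17.2, *Thbs2* at 87.4 ± 5.01 and *Plau* at 37.3 ± 9.02.

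By group mean of log2(score + 1), the highest of the 9 groups was No Dox ECs for *Timp3* (17.70), *Thbs1* (16.07) and *Plat* (13.94), 1wk Dox MΦs for *Plau* (11.39), 1wk WD MΦs for *Plaur* (13.71) and *Timp2* (12.58), 1wk Dox β cells for *Serpine2* (12.97) and *Timp1* (8.27), and the 1wk Dox EC sample for *Thbs2* (9.08). Many neighbours in these orders overlapped in range. For *Timp2* and *Serpine2* every group overlapped the next one down. Where neighbours were of different cell types, the ranges separated for *Timp3* at 1wk WD ECs (17.12) against 1wk WD β cells (14.22), for *Plat* at the EC groups against 1wk Dox β cells (12.29), for *Thbs1* at 1wk WD ECs (15.70) against 1wk WD β cells (12.60), for *Plau* at No Dox MΦs (10.19) against 1wk WD β cells (8.76), and for *Plaur* at the MΦ groups against ECs and at 1wk WD ECs (9.70) against 1wk Dox β cells (7.32).

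The differences between cell types were tested at No Dox and at 1wk WD with limma on log2(score + 1), with all 3 cell types in a fit. A gene is called where the fold is 2 or more and the Benjamini-Hochberg adjusted p over all genes tested is under 0.05. In ECs against β cells at No Dox, 4 of the 9 genes were called, all higher in ECs, where 37.7% of all genes were called in either direction. These were *Thbs1* (log2 difference 5.70, SE 1.12, adjusted p = 0.0013), *Timp3* (5.60, SE 1.30, adjusted p = 0.00381), *Plaur* (5.12, SE 0.77, adjusted p = 0.000198) and *Plat* (3.79, SE 1.25, adjusted p = 0.0252). Without No Dox β cell replicates 1 and 2, those low in stromal markers, the differences were smaller, at 3.11 for *Thbs1*, 2.64 for *Timp3* and 3.52 for *Plaur*, all still called, and 0.94 (adjusted p = 0.133) for *Plat*, and *Timp2* (-3.19) and *Plau* (-2.74) were called lower in ECs. The adjusted p of *Plat* was also over 0.05 when β cell replicate 1 or 2 or EC replicate 1, 3 or 4 was left out singly, and 0.133 was its highest value over all alternatives. Without replicates 3 and 4, all 9 genes were called, where 45.4% of all genes were. In that refit *Plau*, *Plaur* and *Thbs2* averaged under 20 in β cells and passed the filter only through other cell types, so their calls are descriptions.

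At 1wk WD, 6 of the 9 were called between ECs and β cells, where 39.9% of all genes were. *Timp3* (2.90, SE 0.52), *Plaur* (3.17, SE 0.38), *Thbs1* (3.09, SE 0.31) and *Plat* (1.58, SE 0.52) were higher in ECs, with adjusted p from 2.82e-06 to 0.0203. *Timp2* (-1.72, SE 0.48, adjusted p = 0.0093) and *Plau* (-3.09, SE 0.47, adjusted p = 0.000104) were lower in ECs. *Timp2* was not called without 1wk WD β cell replicate 1 (-1.32, adjusted p = 0.0525) or replicate 2 (-1.21, adjusted p = 0.0622). *Plat* was not called without 1wk WD β cell replicate 3, at a log2 difference of 0.66 (adjusted p = 0.0528), or with quantile normalization (1.29, adjusted p = 0.0759), the highest adjusted p over all alternatives. The pericyte and stromal sum was higher in β cell replicates 1 and 2 than in any EC sample at this time, and its part in these differences was not tested.

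Between MΦs and β cells at No Dox, 4 of the 9 genes were called where 43.2% of all genes were. *Plaur* (8.14, SE 0.77, adjusted p = 5.56e-06) and *Plau* (5.10, SE 1.74, adjusted p = 0.0265) were higher in MΦs, and *Timp1* and *Timp3* (-3.43, SE 1.30, adjusted p = 0.0411) were lower. Of the 9 genes *Timp1* and *Plaur*, 2 in all, had no overlap between the samples of the groups, where 43.9% of all genes tested had none. *Timp1*, and likewise *Thbs2*, had mean scores under 20 in MΦs and entered these tests through the other cell types, so a lower level in MΦs was fixed by the filter and is a description. The calls on *Plau* and *Timp3* were lost without single libraries, with the direction kept. For *Plau* the adjusted p was 0.0755 without No Dox β cell replicate 1, 0.0713 without replicate 2 and 0.0509 to 0.0547 without MΦ replicate 1, 2 or 4, with differences of 3.74 without either β cell sample and 5.04 to 5.08 without an MΦ sample. For *Timp3* it was 0.113 without β cell replicate 3, 0.0936 without replicate 4 and 0.0501 to 0.0998 without any 1 of the MΦ samples, with differences of -3.72 to -2.16, and without β cell replicates 3 and 4 the difference was -0.48 (adjusted p = 0.367). Over all alternatives the adjusted p reached 0.0821 for *Plau* and 0.367 for *Timp3*. At 1wk WD, 6 of 9 were called against 46.2% of all genes, with *Plaur* (7.18) and *Plau* (1.65) higher and *Timp3* (-5.01), *Serpine2* (-4.62), *Plat* (-3.91) and *Thbs2* lower in MΦs. Without 1wk WD β cell replicate 3, *Plau* was not called, at a log2 difference of 0.87.

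The comparison of MΦs with ECs does not involve the uneven β cell samples other than through the shared estimate of the spread. At No Dox, 7 of 9 genes were called where 33.5% of all genes were. *Timp3* (-9.03, SE 1.30), *Serpine2* (-6.37, SE 1.65), *Plat* (-6.28, SE 1.25) and *Thbs1* (-4.08, SE 1.12) were lower in MΦs, and *Plaur* (3.01, SE 0.77) was higher, with adjusted p from 0.000127 to 0.0108. The other calls were *Timp1* and *Thbs2*, at 2 to 5 and 1 to 5 in MΦs, which passed the filter only through ECs, and the size of their fitted differences depends on the 1 added to each score. The samples of the 2 groups did not overlap for any of the 9 genes, where 49.8% of all genes tested had no overlap. *Timp2* was 2.73 higher in MΦs (SE 1.08, adjusted p = 0.0606) and was called, at an adjusted p of 4.2e-06, when the fit held only ECs and MΦs. *Plau*, at 880 to 1326 in MΦs and 57 to 104 in ECs, was 3.76 higher in MΦs (SE 1.74, adjusted p = 0.105) and was not called. That SE includes the spread of the No Dox β cells, with an SD of log2(score + 1) of 4.78, beside 0.28 in MΦs and 0.39 in ECs. At 1wk WD, 8 of 9 were called against 40.3% of all genes: *Timp2* (2.04), *Plau* (4.73) and *Plaur* (4.01) were higher in MΦs and *Timp3* (-7.92), *Serpine2* (-5.35), *Plat* (-5.49), *Thbs1* (-3.66) and, with the same limit, *Thbs2* were lower.

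**Figure D2:**
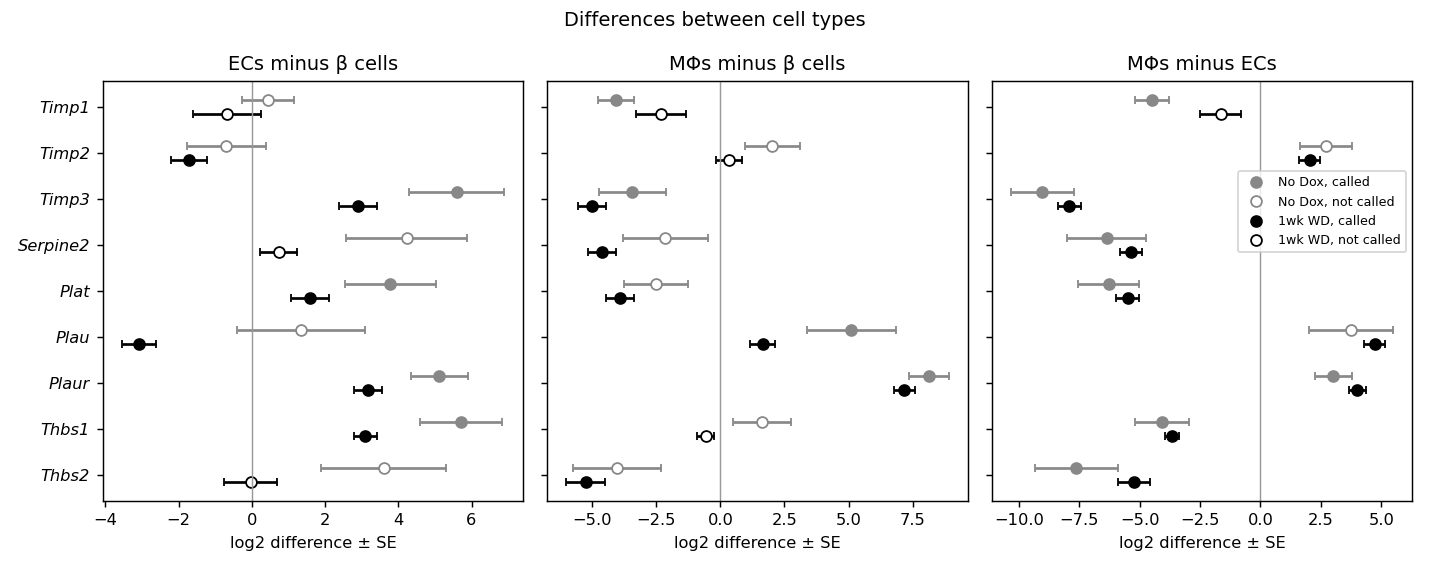
Log2 difference of each gene between cell types with its SE, at No Dox (grey) and 1wk WD (black); filled points are called. *Timp3*, *Serpine2*, *Plat* and *Thbs1* lie left of 0 and *Plaur* lies right of 0 between MΦs and ECs at both times; *Timp1* and *Thbs2* were under the filter in MΦs, so their positions in those panels are descriptions.

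The question of the withdrawal comparison is what the cells looked like after VEGF-A had been turned on and off again. In ECs at 1wk WD, *Timp2* rose 2.14-fold and was the 1 gene of 9 that was called. *Timp3*, the most abundant of the group in ECs, and *Plaur* were lower with adjusted p under 0.05 but changed less than 2-fold. Over all genes 1.76% were called. The samples of the 2 times did not overlap for 4 of the 9 genes, *Timp2*, *Timp3*, *Plaur* and *Thbs1*, where 10.7% of all genes tested had no overlap. The median log2 difference of the 9 was -0.38, beside 0.00 over all genes.

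*Timp2*, which besides blocking metalloproteinases takes part in activating pro-MMP2 at the cell surface, scored 455, 883, 971 and 597 in No Dox ECs and 1213, 1197, 1669, 2158 and 1398 at 1wk WD. Every 1wk WD sample was above every No Dox sample. The log2 difference was 1.10 (SE 0.24, limma adjusted p = 0.0241). It was not called without 1wk WD replicate 3 (adjusted p = 0.0566), without 1wk WD replicate 4 (log2 difference 0.96), without No Dox replicate 1 (adjusted p = 0.0742) or without No Dox replicate 4 (adjusted p = 0.0703), and the adjusted p ran from 0.0211 to 0.0796 over all alternatives. The pericyte and stromal markers moved with it: 9 of 9 tested were higher at 1wk WD and 4 were called (*Rgs5*, *Col1a1*, *Col1a2* and *Col3a1*), and the sum was 48958, 20495, 16858, 70818 and 22314 in the 5 withdrawal samples. The sums of 70818 and 48958, in replicates 4 and 1, stood beside *Timp2* scores of 2158 and 1213. Every withdrawal sum was above those of the No Dox ECs, 5637 to 12607, so the sum and the time cannot be told apart. Acinar markers moved the other way, with 5 of 5 called lower at a median log2 difference of -6.58 and sums of 54005 to 1441538 at No Dox and 660 to 50998 after withdrawal. The part of either marker list in the *Timp2*, *Timp3* and *Plaur* differences was not tested. MΦ markers, in whose cells *Timp2* was also high, summed to 537 to 652 at No Dox and 504 to 901 at 1wk WD.

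*Timp3* scored 212772, 196505, 223364 and 218424 in No Dox ECs and 136309, 152900, 140597, 124361 and 163099 at 1wk WD. All withdrawal samples were below all No Dox samples, by a log2 difference of -0.57 (SE 0.11, adjusted p = 0.0165). With quantile normalization the difference was -0.27 (adjusted p = 0.301). The adjusted p was also over 0.05 without No Dox replicate 1 (0.0515) or 3 (0.0584), and ran from 0.0122 to 0.301 over all alternatives. *Plaur* scored 1739, 1390, 1715 and 1257 at No Dox and 822, 981, 709, 614 and 1116 at 1wk WD, again without overlap. Its log2 difference was -0.86 (SE 0.18, adjusted p = 0.0221), and the adjusted p ran from 0.0168 to 0.081 over the alternatives, with values over 0.05 when No Dox replicate 1, 2 or 3 or 1wk WD replicate 3 was left out. The endothelial marker sum was itself 415293 to 449681 at No Dox and 334479 to 381790 at 1wk WD.

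*Thbs1* scored 66458, 71287, 69568 and 68598 in No Dox ECs and 55644, 58719, 49892, 43584 and 59397 at 1wk WD, with no overlap, a log2 difference of -0.38 (SE 0.11) and an adjusted p of 0.0753. *Plau* scored 90, 57, 99 and 104 at No Dox and 57, 63, 35, 43 and 58 at 1wk WD, with overlap, a log2 difference of -0.76 (SE 0.31) and an adjusted p of 0.188. Neither of these passed the test. *Serpine2*, *Plat* and *Thbs2* had adjusted p of 0.927, 0.331 and 0.664, and *Timp1* was spread to both sides of the No Dox range, at 119, 82, 22, 19 and 64 against 69, 91, 105 and 81 (adjusted p = 0.37).

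ECs at 1wk Dox were represented by 1 sample, so its values have no replicate check. *Timp1* scored 255 there, above the 69 to 105 of the No Dox samples and 1.57 higher on the log2 scale than their mean. It was the 1 gene of 9 that lay 2-fold or more from the No Dox mean, where 10.7% of all genes did. *Plat*, at 13565, and *Thbs1*, at 60271, were below the No Dox samples, so that 3 of 9 genes lay outside the No Dox range, where 62.1% of all genes did. *Timp2* (924), *Timp3* (207442), *Serpine2* (7318), *Plau* (84), *Plaur* (1546) and *Thbs2* (541) were inside it. For *Timp2*, *Timp3* and *Plaur*, which lay outside that range in every 1wk WD sample, the 1wk Dox sample thus lay with No Dox ECs.

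In MΦs at 1wk Dox, *Plau* was the 1 gene of 7 tested that was called, and it was higher with Dox. Over all genes 2.26% were called. *Timp1* and *Thbs2*, with group means under 20 at every time in MΦs, were not tested there. *Plau* scored 1310, 1326, 880 and 1220 at No Dox, 3408 and 2119 with Dox, and 1330, 1430, 1398 and 1276 after withdrawal. Both 1wk Dox samples were above all others, while the 1wk WD samples overlapped the No Dox samples. The log2 difference between 1wk Dox and No Dox was 1.20 (SE 0.22, adjusted p = 0.0125).

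That call rests on 2 samples, and with 1 of them left out the other is assumed to vary like the rest of the groups. The identifiers of both, of the 1wk Dox EC sample and of 1wk WD β cell replicate 3 form a run of numbers apart from the rest. What that run stands for is not given, and in MΦs it cannot be told apart from Dox. Without 1wk Dox replicate 4 the *Plau* difference was 0.86 (adjusted p = 0.389), without replicate 5 it was 1.54 (adjusted p = 0.032), and with only the 2 groups in the fit it was 1.20 (adjusted p = 0.0802). With the replicate number as a block it was 1.56 (adjusted p = 0.159), and the adjusted p ran from 0.00705 to 0.389 over all alternatives. Platelet markers moved with it: their summed score was 2578 to 3230 at No Dox, 7766 and 4799 with Dox and 4201 to 4726 after withdrawal, with 2 of 4 tested called higher at 1wk Dox. EC markers summed to 1288 to 1822 at No Dox and 2874 to 3518 with Dox (7 of 8 tested had a positive log2 difference). Of 5 lymphocyte markers 1 was called higher, but only 2 had a positive log2 difference (median -0.55). Acinar markers summed to 19228 to 9911750 and 765 to 2703, with 3 of 5 called lower. β cell markers had a positive log2 difference in 8 of 8 (median 0.94) and pericyte and stromal markers in 8 of 10 (median 0.78), with none called. The MΦ markers themselves summed to 253765 to 332927 at No Dox and 344988 to 418707 with Dox. Of these, 6 of 8 had a positive log2 difference (median 0.6) and 1 was called higher. The part of these markers in the *Plau* difference was not tested. Without No Dox MΦ replicate 2, the sample with the most acinar RNA, the difference was 1.26 (adjusted p = 0.013). That refit is no test of acinar RNA, because the remaining No Dox samples still had acinar sums of 84828, 19228 and 1674642.

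No other member passed the test in MΦs. *Timp2* scored 4670, 4059, 5159 and 4632 at No Dox, 6095 and 6020 with Dox, and 5989, 6356, 5744 and 6402 after withdrawal. All samples of both later times were above all No Dox samples, with log2 differences of 0.39 (SE 0.13, adjusted p = 0.109) and 0.41 (SE 0.11, adjusted p = 0.0863), neither of which passed. *Serpine2* scored 136, 148, 39 and 62 at No Dox, 255 and 183 with Dox, and 139, 233, 186 and 146 after withdrawal, with log2 differences of 1.36 (SE 0.54, adjusted p = 0.169) and 1.03 (SE 0.44, adjusted p = 0.253). The samples of No Dox and 1wk Dox had no overlap for *Timp2*, *Serpine2* and *Plau*, 3 of the 7 genes tested, where 30.9% of all genes tested had none with groups this small. Between No Dox and 1wk WD only *Timp2*, 1 of the 7, had no overlap, where 9.24% of all genes tested had none. *Plaur*, at 10487 and 14190 with Dox, lay within the 9652 to 20454 of the 1wk WD samples, and *Thbs1* scored 3039 and 4240 at 1wk Dox against 3385 to 4560 at No Dox.

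At 1wk WD against No Dox, limma called 0 of the 7 genes in MΦs, where it called 0.626% of all genes, and 2 of the 7, *Timp2* and *Serpine2*, had an unadjusted p under 0.05, as did 2595 of 15014 genes. At 1wk WD against 1wk Dox it also called 0 of 7, against 0.0866% of all genes, and *Plau* alone had an unadjusted p under 0.05, as did 1456 genes, with a log2 difference of -0.98 (SE 0.22, adjusted p = 0.145). *Timp1* and *Thbs2* remained near the lowest score: *Timp1* was 5, 3, 2 and 2 at No Dox, 11 and 10 with Dox and 18, 22, 15 and 8 after withdrawal, and *Thbs2* was 5, 1, 1 and 1, then 8 and 8, then 13, 12, 34 and 3. Pericyte and stromal markers were also low in MΦs, and 10 of 10 had a positive log2 difference after withdrawal with none called.

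**Figure D3:**
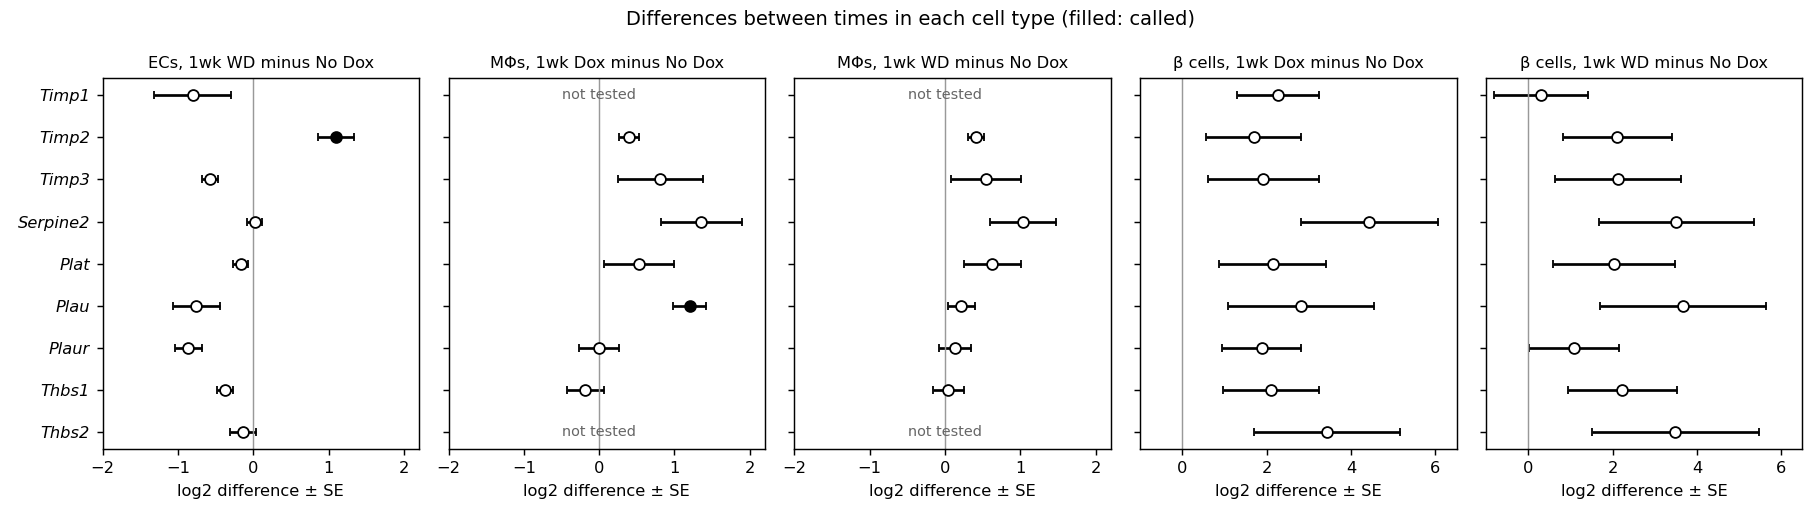
Log2 difference of each gene between times in each cell type with its SE; filled points are called, and genes with a mean score under 20 were not tested. *Timp2* in ECs at 1wk WD and *Plau* in MΦs at 1wk Dox are the called differences, and the SEs in β cells reach over 1 on the log2 scale.

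In β cells no member was called at any time, and the No Dox samples themselves fell into a low and a high pair. *Timp3* scored 684, 466, 18749 and 62132 at No Dox, 36037, 11606, 18053, 26721 and 6191 with Dox, and 31549, 34660 and 6359 after withdrawal. *Serpine2* scored 97, 8, 2859 and 7684, then 13534, 6417, 8510, 11133 and 4104, then 9211, 7275 and 1142. *Plat* scored 218, 113, 4434 and 15048, then 8686, 3477, 5598, 6238 and 2940, then 8728, 9021 and 1285. For all 9 genes No Dox replicates 1 and 2 were below replicates 3 and 4, and these are the samples low and high in pericyte and stromal markers. The same pairs differed in acinar markers, with sums of 611697 and 26146 against 10512633 and 8079277, and, the other way, in β cell markers, with sums of 8599818 and 5467204 against 1638251 and 622601.

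The low genes followed the same split. *Plau* scored 1, 1, 310 and 1073 at No Dox, 289, 249, 486, 236 and 92 with Dox, and 647, 854 and 146 after withdrawal, and *Thbs2* scored 1, 3, 370 and 1133, then 1137, 365, 425, 1046 and 111, then 1040, 855 and 124. In the 2 No Dox samples with few stromal markers, *Plau* was thus at the lowest score and *Thbs2* at or near it. *Thbs1* scored 395, 121, 5586 and 11414 at No Dox, 11420, 6114, 7062, 4965 and 2446 with Dox, and 8992, 8369 and 3188 after withdrawal, and *Timp2* scored 257, 159, 3648 and 10974, then 6328, 2582, 3808, 5146 and 2019, then 8524, 9849 and 1394. 1wk WD replicate 3 was the withdrawal sample lowest in stromal markers and in acinar markers (291 against 504062 and 87966). It was the highest in β cell markers (10860179 against 616623 and 1882298) and EC markers (15118 against 3593 and 5829), and these traits cannot be told apart. This sample was the lowest of its group for 8 of the 9 genes. *Plaur* was the exception, at 163, 42 and 110, and was 33, 5, 127 and 134 at No Dox and 269, 153, 281, 203 and 42 at 1wk Dox. *Timp1*, finally, scored 35, 19, 89 and 258 at No Dox, 598, 382, 252, 451 and 104 with Dox and 186, 220 and 11 after withdrawal.

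**Figure D4:**
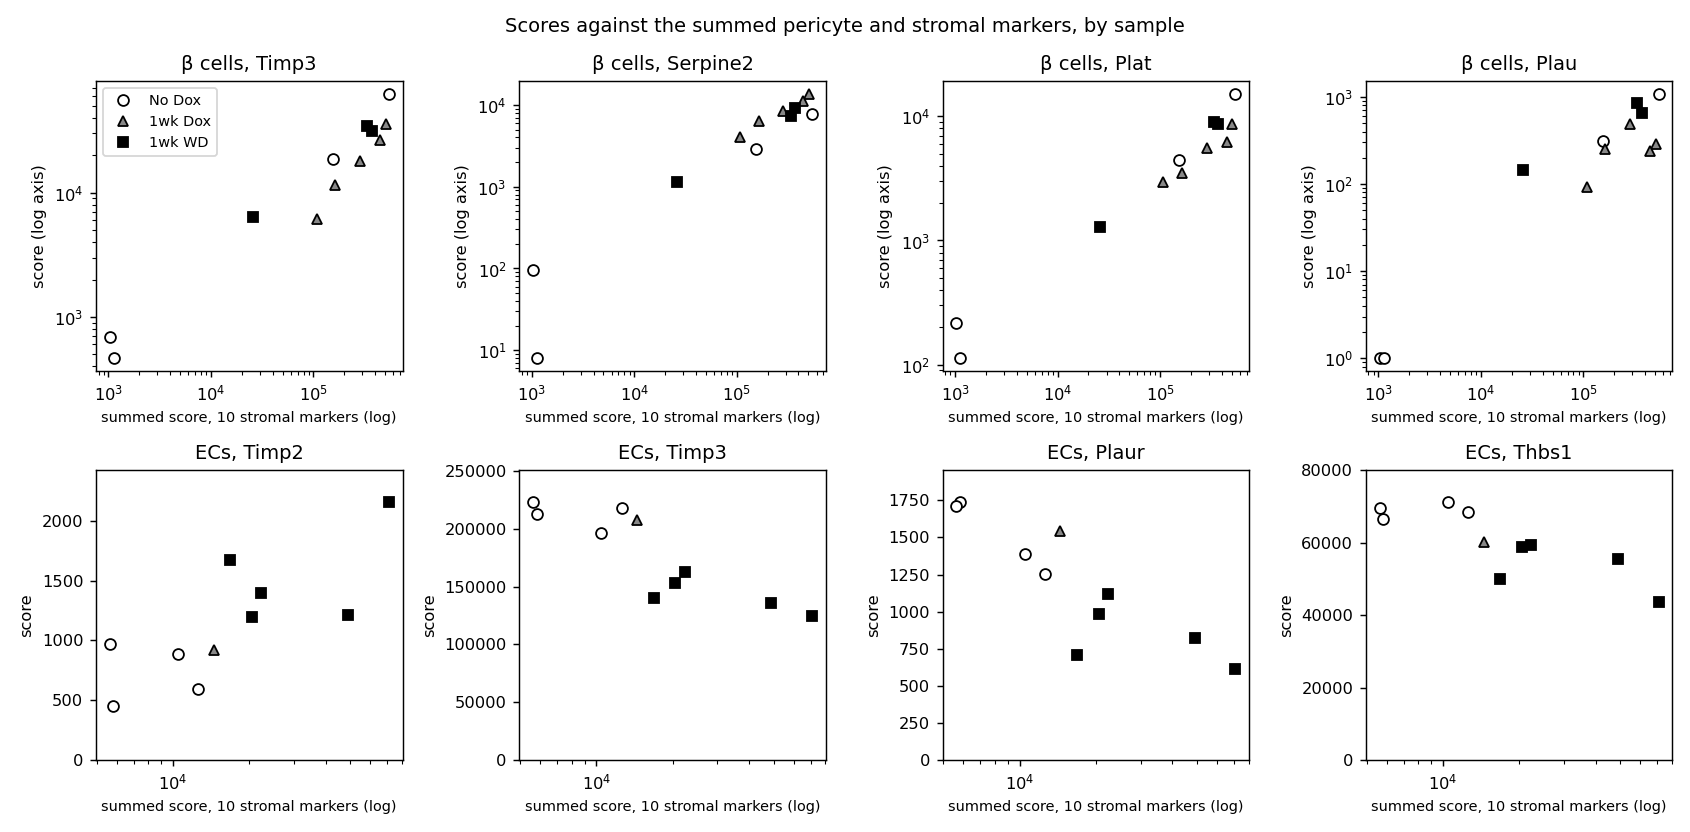
Score of 4 genes in β cell samples (top, log axes) and 4 in EC samples (bottom, linear score axis from 0) against the summed score of 10 pericyte and stromal markers in the same sample (log axis). In β cells the 2 No Dox samples with sums of 1031 and 1125 lie at the bottom for each gene; in ECs the 5 withdrawal samples lie right of the No Dox samples for each gene.

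The limma differences between 1wk Dox and No Dox in β cells were 1.69 to 4.43 on the log2 scale, with adjusted p from 0.635 to 0.8, and 0 of 9 genes were called where 0.0122% of all genes were. *Timp1* (2.26, SE 0.98) and *Serpine2* (4.43, SE 1.62) had an unadjusted p under 0.05, as did 1142 of 16346 genes. Between 1wk WD and No Dox the differences were 0.31 to 3.67 (adjusted p 0.615 to 0.941), with 0 of 9 called, 0% of all genes called and no member at an unadjusted p under 0.05, beside 1336 genes. Between 1wk WD and 1wk Dox they were -1.96 to 0.86, again with 0 of 9 called and 0% of all genes, and no member against 1032 genes at an unadjusted p under 0.05. Both comparisons with No Dox use the same No Dox samples, so they are not independent of each other, which holds for MΦs as well. The medians of the 9 were 2.14, 2.12 and 0.06, beside 0.03, 0.06 and 0.05 over all genes.

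These differences changed with the No Dox samples used. Without No Dox replicates 1 and 2, the differences of the 9 genes from No Dox ran from -1.27 to 1.01 at 1wk Dox and from -0.95 to -0.14 at 1wk WD, and none was called. Without replicates 3 and 4 they ran from 3.48 to 8.08 at 1wk Dox, with 8 of 9 called and 7.36% of all genes called, and from 1.56 to 7.76 at 1wk WD, with 7 of 9 called and 8.74% of all genes called. *Timp1* was the gene not called in either case, with *Plaur* beside it at 1wk WD. In the remaining No Dox samples *Plau* (1 and 1), *Thbs2* (1 and 3) and *Plaur* (33 and 5) averaged under 20. They passed the filter only through the later groups, so their direction was fixed by it and is a description. The pericyte and stromal markers themselves were higher at 1wk Dox by a median of 3.90 on the log2 scale over 10 markers and at 1wk WD by 3.72, with none called. EC markers in β cell samples summed to 1398 to 6483 without Dox, 1235 to 45357 with it and 3593 to 15118 after withdrawal. MΦ markers there summed to 486 to 5267, 1305 to 5219 and 5005 to 7515. They had a positive log2 difference in 3 of 8 at 1wk Dox (median -0.04) and 8 of 8 at 1wk WD (median 1.83). Acinar markers had a positive difference in 0 of 5 at either time, with medians of -9.18 and -5.73. No marker of these lists was called. How much of each member's score in these samples came from cells other than β cells was not tested.

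Whether a cell type responded differently from another was tested directly as an interaction in limma. For the response to withdrawal, 0 of 9 genes were called between ECs and β cells, where 0.368% of all genes were, and *Plau* (-4.43, SE 1.91), *Plaur* (-1.95, SE 0.92) and *Thbs1* (-2.61, SE 1.24) had an unadjusted p under 0.05, as did 2522 of 16833 genes. Between MΦs and β cells 0 of 9 were called against 0.0475%, and none had an unadjusted p under 0.05, beside 1991 genes. Between MΦs and ECs 0 of 9 were called against 0.0356%, and *Timp1*, whose scores in MΦs were under the filter, had an unadjusted p under 0.05, as did 1932 genes. That fit shared its estimate of the spread with the uneven β cell samples. Its median residual SD over all genes was 0.542, beside 0.282 and 0.346 in the fits between times of ECs and MΦs. For the response to Dox, 0 of 9 were called between MΦs and β cells, with 0% of all genes, and none had an unadjusted p under 0.05, beside 895 of 16490 genes. Without No Dox β cell replicates 3 and 4, 8, 8 and 7 members were called in the 3 comparisons with β cells, where 16.9%, 14.2% and 6.24% of all genes were. Among them were *Plau*, *Thbs2* and, for withdrawal, *Plaur*. These averaged under 20 in the remaining No Dox β cells and passed the filter only through other groups, so their calls are descriptions. The *Timp2* difference in ECs is not shown to differ from those in β cells and MΦs, nor the *Plau* difference in MΦs from that in β cells, and the Dox response of MΦs against ECs was not tested, with 1 EC sample.

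The partners of these proteins were described with 3 lists: 22 plasminogen system genes, 35 metalloproteinases and their inhibitors, and 18 thrombospondins and thrombospondin receptors or ligands. In ECs at 1wk WD, where 1.76% of all genes were called, 1 of 16 plasminogen genes tested was called, the uPA and tPA clearance receptor *Lrp1* (1.44, SE 0.30, adjusted p = 0.0228). Among metalloproteinases 2 of 29 were called, the gelatinase *Mmp2* and the membrane-bound *Mmp16*. Both had mean scores under 20 in No Dox ECs and passed the filter only through the withdrawal samples, so their direction was fixed by it and is a description. Among thrombospondin partners 1 of 17 was called, the calcium channel subunit *Cacna2d1* (2.08, SE 0.50, adjusted p = 0.0373). *Lrp1* and *Cacna2d1* were both higher at 1wk WD. The stromal markers were higher too, and their part in these differences was not tested. The *Lrp1* call was lost without No Dox replicate 1, 2 or 3 and the *Cacna2d1* call without No Dox replicate 1, 2 or 3 or 1wk WD replicate 1 or 4, with adjusted p up to 0.0811 and 0.123 over all alternatives. *Mmp2* remained low in ECs, with scores of 10 to 14 at No Dox and 37 to 126 at 1wk WD. The list medians were 0.13, 0.07 and 0.01, beside 0.00 over all genes.

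In MΦs at 1wk Dox, 1 of 18 plasminogen genes, the plasminogen-binding enolase *Eno1* (1.18, SE 0.24, adjusted p = 0.02), 1 of 30 metalloproteinases, the collagenase *Mmp13* (2.03, SE 0.20, adjusted p = 0.000988), and 0 of 17 thrombospondin partners (3 at an unadjusted p under 0.05, beside 3200 of 15014 genes) were called, where 2.26% of all genes were, with medians of 0.19, 0.24 and 0.19 beside 0.04. Without 1wk Dox replicate 4 both calls were lost, at 1.11 (adjusted p = 0.398) for *Eno1* and 1.79 (adjusted p = 0.0806) for *Mmp13*, and *Eno1* was also lost without replicate 5 (1.26, adjusted p = 0.107). The values without replicate 4 were the highest adjusted p over all alternatives for both genes. *Mmp13* scored 3611 to 5226 at No Dox, 14086 and 19661 with Dox, and 6624 to 9908 after withdrawal. At 1wk WD against No Dox, *Mmp13* (1.00, SE 0.17, adjusted p = 0.0178) was higher and the macrophage elastase *Mmp12* (-1.19, SE 0.23, adjusted p = 0.0301) was lower, and 0 of 18 and 0 of 17 genes of the other lists were called, with 7 and 1 at an unadjusted p under 0.05, beside 2595 of 15014 genes. *Mmp12* was also lower at 1wk WD than at 1wk Dox (-1.90, SE 0.28, adjusted p = 0.0331), the 1 call among all 3 lists in that comparison. Against No Dox the *Mmp13* call was lost without 1wk WD or No Dox replicate 1, 2 or 4, and the *Mmp12* call without 1wk WD replicate 1, 2 or 3 or No Dox replicate 1 or 3, with adjusted p up to 0.111 and 0.122 over all alternatives. Against 1wk Dox the *Mmp12* call was lost without either 1wk Dox sample (adjusted p = 0.898 without replicate 4 and 0.269 without replicate 5) or without 1wk WD replicate 1, 2 or 3, with adjusted p up to 1.0 over all alternatives. In β cells limma called 0 genes of the 3 lists at any time, with 2 of 17, 5 of 30 and 3 of 18 at an unadjusted p under 0.05 after Dox, beside 1142 of 16346 genes, and 1, 7 and 2 after withdrawal, beside 1336.

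Between cell types at No Dox, the plasminogen list had 4 genes called higher and 4 lower of 18 tested in ECs against β cells, 4 and 5 in MΦs against β cells and 2 and 5 in MΦs against ECs. The metalloproteinase list, with 32 tested, had 10 higher and 2 lower, 11 and 8, and 7 and 12. The thrombospondin partners, with 17 tested, had 8 and 4, 5 and 4, and 2 and 6. Over all genes 37.7%, 43.2% and 33.5% were called in these comparisons, so the counts are a description of the lists. *Plg*, which encodes plasminogen itself and is named after its values were seen, was at the lowest score in every EC and MΦ sample and at 1 or 2 in β cells.

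The genes with patterns most like each member over the 32 samples were, by Pearson correlation of log2(score + 1), *Tpm1*, *Gm11444* and *Mxra8* for *Timp1* (r = 0.878 to 0.896), *Cp*, *Itga8* and *Gbgt1* for *Timp2* (0.943 to 0.954), and *Tmem204*, *Ldb2* and *Epas1* for *Timp3* (0.987 to 0.991). They were *Sparc*, *Gjc1* and *F2r* for *Serpine2* (0.974 to 0.976), *Ltbp4*, *F2r* and *Sparcl1* for *Plat* (0.986 to 0.988), *Mnda*, *Zeb2* and *Sh3pxd2b* for *Plau* (0.953 to 0.958), and *Lrrc33*, *Irak4* and *Lyn* for *Plaur* (0.97 to 0.976). For *Thbs1* they were *Nrp1*, *Chst15* and *Smad6* (0.969 to 0.976), and for *Thbs2* *Sept4*, *Afap1l2* and *Gjc1* (0.964 to 0.974). Among the members themselves, *Timp3* and *Plat* (0.978), *Serpine2* and *Thbs2* (0.958), and *Serpine2* and *Plat* (0.956) were the closest pairs. The samples share sorts, amplification and normalization and span 3 cell types, and the correlations, taken against 16968 genes, are a description. Only 3 of these 27 neighbours were also among the nearest 3 by rank correlation.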

How the data were processed

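RNA from sorted β cells, ECs and MΦs was amplified with the NuGEN Ovation system and sequenced by the authors as paired-end reads, which they aligned to mm9 with TopHat2 2.0 and normalized by TMM with the software Avadis NGS. What they deposited is here called a score: expression values that the authors normalized and deposited as integers, none under 1. Counts and depth cannot be recovered from them. The table has 38 value columns. The 32 of the labelled samples were used, and the 6 others, which belong to another series, were not.

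Within each cell type, or across the 3 cell types at a time, log2(score + 1) was fitted with limma 3.58.1 (R 4.3.3, empirical Bayes with a trend) for the genes whose score averaged 20 or more in some fitted group. Adding 1 understates changes of low genes. The time fits hold the cell type's groups, except that the single 1wk Dox EC sample was left out, and the interactions hold all cell types. Calls need a fold of 2 and a Benjamini-Hochberg adjusted p under 0.05 over all genes tested. There were 7 comparisons between times, 6 between cell types and 4 of responses, in all 17. P-values measure the spread between samples, which may be partly technical. The members and gene lists were chosen with earlier results of these data known. The rule named all 9 members, list genes where called, and the 3 genes most correlated with each member. List genes called between cell types are given as counts, and 1 item is not reported here. Of 153 genes on the lists, the 9 members not counted, 152 were matched. The fit was tested on simulated data before use. The 2 alternatives that leave out pairs of No Dox β cell samples and 1 with only EC and MΦ samples were chosen after seeing the data.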

Additional observations from a re-analysis of the deposited data

Results flagged for a closer look

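Of 54 groups of 4 or 5 samples, 9 genes in 6 groups, 2 held a sample far from the rest by Dixon's test at its 95% level, and chance flags about 1 in 20 groups. *Thbs2* scored 329 in 1wk WD EC replicate 5, while the other 4 samples scored 488 to 548. *Thbs2* scored 5 in No Dox MΦ replicate 1, while the other 3 were at 1, the lowest score, and both values are too low to compare. No gene of the 9 was called in any of the 4 tests of responses between cell types, over 36 tests of single genes.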

How the results depend on the processing

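The count of members called was recomputed in 319 refits, with 298 within 1.5 times of the reported count. In ECs at 1wk WD the count was 0 in place of 1 without a trend of the spread, and 0 to 1 when leaving out each replicate in turn. For 1wk Dox MΦs it was 0 in place of 1 without the trend, with only the 2 groups compared and with the replicate block, and 0 to 1 with replicates left out. For MΦs against β cells at No Dox it was 2 in place of 4 with only the 2 groups compared, and 2 to 6 with replicates left out. Without No Dox β cell replicates 3 and 4 it was 8 (1wk Dox) and 7 (1wk WD) in β cells, in place of 0, 9 in place of 4 for ECs against β cells at No Dox (3 to 6 with replicates left out), and in the tests of responses 8 in place of 0 for ECs and 8 for MΦs against β cells at withdrawal and 7 at Dox. The counts without replicates 3 and 4 include *Plau*, *Thbs2* and in most cases *Plaur*. These averaged under 20 in the remaining No Dox β cells and passed the filter only through other groups. Leaving out single replicates gave 0 to 3 for the EC against β cell response, the 3 without No Dox β cell replicate 4. The cause of these changes was not tested. Rank in place of Pearson correlation kept 3 of 27 neighbours. Over all settings other than those chosen after seeing the data, the genes called among all genes ran from 75 to 311 (reported 250) in ECs at 1wk WD, 0 to 487 (340) in MΦs at 1wk Dox, 11 to 123 (94) at 1wk WD and 0 to 79 (13) between these, 0 to 26 (2), 0 to 2 (0) and 0 to 1 (0) in the 3 β cell comparisons, 20 to 936 (62) and 5 to 395 (8) for the withdrawal responses of ECs and MΦs against β cells, 4 to 19 (6) for MΦs against ECs, where only EC and MΦ samples gave 219, and 0 to 2 (0) for the Dox response. None of 56 member differences with an unadjusted p under 0.05 changed sign in 964 refits, and 101 of 1790 refits did among the other 91, 42 of them without No Dox β cell replicates 1 and 2.

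Same-numbered samples did not deviate together. Correlations of deviations between No Dox and 1wk WD samples with the same number were -0.486 to -0.295 in β cells, -0.213 to 0.195 in ECs and -0.114 to 0.064 in MΦs, and in no cell type did every sample correlate best with its own number, so the numbers were not taken as pairs. The block took the genes called from 340 to 3, from 94 to 43 and from 13 to 0 in the 3 MΦ comparisons and from 2 to 0 in β cells at 1wk Dox. It changed the call on *Plau* and no other count of members. Scores without depth and 1 to 5 samples a group limit the precision throughout.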
